A study of Mus musculus with 6 samples.

Results

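Sox genes encode transcription factors that share a DNA-binding HMG box, and 10 of them were described in mouse intestinal organoids in low glutamine medium and in control medium. They are Sox2, Sox4, Sox5, Sox6, Sox9, Sox11, Sox12, Sox13, Sox18 and Sox21, which are 10 of the 20 genes of the family found among 24956 rows of the table. The 10 genes were selected on the measured values of these libraries, with the contrast between the media in view and with no threshold stated. Their differences between media are therefore given as a description, without a test. All 10 are accounted for: 6 reached a mean of 1 RPKM (reads scaled to transcript length and library depth) over the 6 libraries and entered the fit across 11082 genes, and Sox2, Sox5, Sox11 and Sox18 did not.

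The study grew organoids, self-organising epithelial cultures, of the Apc Min genotype. In this genotype Apc, a component of the complex that degrades beta-catenin, carries a truncating mutation. One group of 3 libraries came from low glutamine medium and the other group of 3 libraries from control medium, and both groups carry the Apc Min genotype. Each library is described as a biological replicate, and the sources used here do not give the glutamine concentrations, the time in the medium, the part of the intestine or the number of animals or lines. The series title puts the comparison in the context of alpha-ketoglutarate, Wnt signalling and differentiation in colorectal cancer.

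Libraries held an estimated 28.2 to 34.0 M (mega) reads in low glutamine and 24.4 to 35.3 M reads in control medium. The organoids carried high levels of epithelial transcripts in both groups, led by the keratin Krt8 at 711 ± 37.4 RPKM in low glutamine and 562 ± 58.4 RPKM in control medium (SD, n = 3 each). Sex-linked transcripts separated the groups as well. Xist, which is transcribed from the inactive X chromosome, averaged 0.0286 ± 0.00577 RPKM in low glutamine and 87.3 ± 3.78 RPKM in control libraries. The Y-linked gene Eif2s3y had 26.6, 25.2 and 31.4 RPKM in low glutamine libraries and was listed at 0 in the 3 control libraries. The medium and this sex-linked difference coincide in all 6 libraries and cannot be told apart. The 10 Sox genes all lie on autosomes. In these bulk samples, fewer cells of a type and less RNA per cell cannot be told apart either.

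As background, SOX proteins bind short AT-rich sequences in the minor groove, bend the DNA and act with partner factors, and the family is divided into groups by the similarity of the HMG box. In the intestinal epithelium Sox9 is active in crypts downstream of Wnt signalling and is needed for Paneth cells, which make antimicrobial proteins. Sox4 is known there for a role in tuft and enteroendocrine cells, while Sox2 marks the epithelium of the stomach and oesophagus.

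Of the 10 genes, 8 were higher in every low glutamine library than in every control library, 2 had overlapping groups (Sox2 and Sox18) and 0 were lower. The same separation was seen in 38.9% of all tested genes and in 27.2% of all rows of the table. All 6 members in the fit were among the 8. Since the genes were chosen with this contrast known, nothing is read from that count. By limma, 36.1% of tested genes were called higher in low glutamine and 30.3% lower. The median log2 fold change was 0.32 over the 10 members and 0.57 over the 6 members in the fit, beside 0.03 over all tested genes, on the log2(RPKM + 1) scale. This scale understates the change of low genes, so the ratio of mean RPKM is given as well. Of all calls, 54.4% were higher in low glutamine. Scaling the libraries to equal sums raised that share to 69.1% and median-of-ratios scaling lowered it to 42.1%, and these scalings placed the median of all genes at 0.15 and -0.05.

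RefSeq promoter windows of build GRCm38.p6, which run from 250 bases before to 50 bases after a gene's start, were available for 8 of the 10 members. The windows of Sox21, the member with the largest log2 fold change, and of the 3 SOXC genes Sox4, Sox11 and Sox12 are shown, since these share a protein group and lie far apart in level. All 4 are printed 5′ to 3′ on the gene's own strand, which is the minus strand, and capitals mark the letters CCAAT or their reverse complement ATTGG.
Sox21 (chr14:118236981-118237280): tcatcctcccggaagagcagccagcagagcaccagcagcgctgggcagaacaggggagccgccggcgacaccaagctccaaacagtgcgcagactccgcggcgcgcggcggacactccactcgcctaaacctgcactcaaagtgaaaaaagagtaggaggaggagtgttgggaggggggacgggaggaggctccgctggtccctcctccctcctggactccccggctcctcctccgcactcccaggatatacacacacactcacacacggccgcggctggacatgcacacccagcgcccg
Sox4 (chr13:28953650-28953949): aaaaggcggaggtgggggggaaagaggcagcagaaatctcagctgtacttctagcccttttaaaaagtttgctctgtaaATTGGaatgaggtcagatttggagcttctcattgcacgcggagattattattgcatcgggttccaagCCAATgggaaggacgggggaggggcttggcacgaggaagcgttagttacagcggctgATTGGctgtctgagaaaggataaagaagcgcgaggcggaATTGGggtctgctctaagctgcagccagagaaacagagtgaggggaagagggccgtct
Sox11 (chr12:27342669-27342968): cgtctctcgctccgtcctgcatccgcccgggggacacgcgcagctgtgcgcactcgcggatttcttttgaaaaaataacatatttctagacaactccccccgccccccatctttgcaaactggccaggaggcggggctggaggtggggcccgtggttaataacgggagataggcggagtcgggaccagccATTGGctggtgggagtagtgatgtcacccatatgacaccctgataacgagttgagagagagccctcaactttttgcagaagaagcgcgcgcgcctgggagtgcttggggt
Sox12 (chr2:152397997-152398296): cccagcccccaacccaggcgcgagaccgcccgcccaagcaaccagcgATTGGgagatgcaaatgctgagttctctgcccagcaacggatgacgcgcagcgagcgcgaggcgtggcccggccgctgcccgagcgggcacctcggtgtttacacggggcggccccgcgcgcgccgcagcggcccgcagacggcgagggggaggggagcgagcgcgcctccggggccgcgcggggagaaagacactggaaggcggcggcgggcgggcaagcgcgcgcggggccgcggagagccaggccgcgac

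The Sox4 window held 4 CCAAT matches, the Sox11 and Sox12 windows 1 each, and the Sox21 window 0. Over both strands, 37.4% of 32851 RefSeq promoter windows of the same length held at least 1 such match. The Sox12 window was 76.7% G or C and the Sox21 window 65.7%, against 58.7% in Sox11 and 52.0% in Sox4, beside a median of 52.7% over all windows. The core letters AACAAT of the SOX motif, searched on both strands, occurred in none of these 4 windows and in 10.7% of all windows. Among all 13 windows of the 8 members, AACAAT was found in 1, an internal Sox6 window with 2 matches. The TCF/LEF core CTTTGAT, searched in the same way, was likewise found in 1 Sox6 window, beside 3.73% of all windows. TATAAA occurred in 2 Sox6 windows, beside 13.6% of all windows, and the GC-box letters GGGCGG in 4 windows of 4 members, beside 35.7% of all windows. No matches of different motifs shared a base. These matches are a description of the letters in a window, not of binding.

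Sox9 belongs to the SOXE group, and lies on chromosome 11 from 112782210 to 112787757 on the plus strand of GRCm38.p6, with 3 exons. Its level was 71.3, 68.1 and 61.1 RPKM in low glutamine replicates 1 to 3, against 38.0, 36.0 and 31.3 RPKM in control replicates 1 to 3. Every low glutamine library lay above every control library, and replicate 3 was the lowest of both groups. Sox9 averaged 66.8 ± 5.25 RPKM in low glutamine and 35.1 ± 3.41 RPKM in control medium (SD, n = 3 each), a ratio of 1.90 and a log2 fold change of 0.91 with a standard error of 0.08. This fold change ranked 541 from the top among the 11082 tested genes. By level, Sox9 had a median rank of 676 among all rows in low glutamine and 1729 in control libraries. Leaving out any 1 library, rescaling or another pseudocount gave log2 fold changes of 0.82 to 1.06.

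Sox8 and Sox10 are the other SOXE genes. Sox8 was at 0 in all libraries but low glutamine replicate 2, which held 0.0101 RPKM, and Sox10, a regulator of neural crest and glial cells, was at 0 in all 6. Among the SOXE genes, therefore, Sox9 carried nearly the whole measured signal in both media.

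Sox4, Sox11 and Sox12 form the SOXC group, whose genes are known from embryonic neural and mesenchymal tissues. Sox4 is a single-exon gene on chromosome 13 from 28948919 to 28953699, minus strand. Its level was 106, 106 and 110.4 RPKM in low glutamine libraries, against 86.2, 84.2 and 85.8 RPKM in control libraries. It was the highest of the 10 genes in every library, and the groups did not overlap. Sox4 averaged 107 ± 2.58 RPKM in low glutamine and 85.4 ± 1.04 RPKM in control medium (SD, n = 3 each), a ratio of 1.26. Its log2 fold change of 0.33, with a standard error of 0.05, ranked 2216 among tested genes, and its median rank by level was 415 in low glutamine and 645 in control libraries. The alternatives gave log2 fold changes of 0.23 to 0.54.

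Sox12, a weaker activator than its relatives, lies on chromosome 2 from 152393611 to 152398046, minus strand. It had 5.24, 5.46 and 4.88 RPKM in low glutamine libraries, against 3.34, 3.25 and 2.86 RPKM in control libraries. As for Sox9, the groups were apart and replicate 3 was the lowest of both. The means were 5.19 ± 0.293 RPKM in low glutamine and 3.15 ± 0.255 RPKM in control medium (SD, n = 3 each), a ratio of 1.65 and a log2 fold change of 0.58 with a standard error of 0.06.

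Sox11, a gene of developing neurons, was present at a trace level. The single-exon gene on chromosome 12, from 27334268 to 27342718, had 0.0834, 0.0970 and 0.0754 RPKM in low glutamine libraries, against 0.0114, 0 and 0.00485 RPKM in control libraries. From the transcript length and the estimated depths these values stand for 24.0, 26.9 and 17.97 reads in low glutamine libraries, and 2.99, 0 and 0.998 reads in control libraries. The sums were 69 reads in low glutamine and 4 reads in control medium, a depth-corrected ratio of 16.5 with an exact 95% interval of 6.16 to 62.2, which covers counting error only. The log2(RPKM + 1) difference was 0.11, which shows how the pseudocount compresses a change at this level.

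Sox21 had the largest difference on the fitted scale among the 10 genes. It belongs to the SOXB2 group of repressors and is known in the mouse from hair follicles, teeth and airway epithelium. The single-exon gene spans 118233233 to 118237030 of chromosome 14, minus strand. Its level was 13.8, 13.9 and 12.1 RPKM in low glutamine libraries, against 0.713, 0.804 and 0.668 RPKM in control libraries. No low glutamine library came near a control library, and within each group the 3 values lay close together. Sox21 averaged 13.2 ± 1.0005 RPKM in low glutamine and 0.728 ± 0.0695 RPKM in control medium (SD, n = 3 each), a ratio of 18.2. Its log2 fold change of 3.04, with a standard error of 0.07, ranked 35 among the 11082 tested genes, and 468 genes were called at least 2-fold higher.

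The Sox21 values stand for an estimated 1775, 1730 and 1294 reads in low glutamine libraries and 84.4, 108 and 61.8 reads in control libraries. The ratio of the depth-corrected read sums was 18.1, with an exact 95% interval of 15.9 to 20.6 for counting error only. The estimates lay up to 0.456 from a whole read and were rounded before summing, so the interval is approximate. Sox21 passed the filter of 1 RPKM only through the low glutamine group. With a pseudocount of 5 its log2 fold change was 1.67 and with 0.1 it was 4.01, so its size on the log scale, though not its direction, depended on that choice. By level its median rank among all rows was 4239 in low glutamine and 11146 in control libraries.

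Sox14, the other SOXB2 gene, is not among the 10 and had reads in each low glutamine library but in no control library. It had 0.0854, 0.103 and 0.0343 RPKM in low glutamine libraries, or 5.99, 6.99 and 1.996 reads, and was at 0 in the control libraries. Against a floor of 3 reads over the control group, the depth-corrected ratio was 4.78. This ratio takes the 15 low glutamine reads as exact, so it is not a lower limit. Sox14 was singled out after its values were seen.

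Sox2, the SOXB1 gene of stomach and oesophagus epithelium and of pluripotent cells, was listed at 0 in all 6 libraries. It is a single-exon gene on chromosome 3 from 34649995 to 34652461, plus strand. A count of 0 allows up to 3 reads, which is 0.0344 to 0.0499 RPKM for this length at the estimated depths. It lies within the span of the non-coding gene Sox2ot, which was at 0 in all libraries but control replicate 2, at 0.00951 RPKM. Sox2 was therefore not detectable at this depth in either medium, and its SOXB1 relatives Sox1 and Sox3 did not exceed 0.0285 RPKM in any library.

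**Figure D1:**
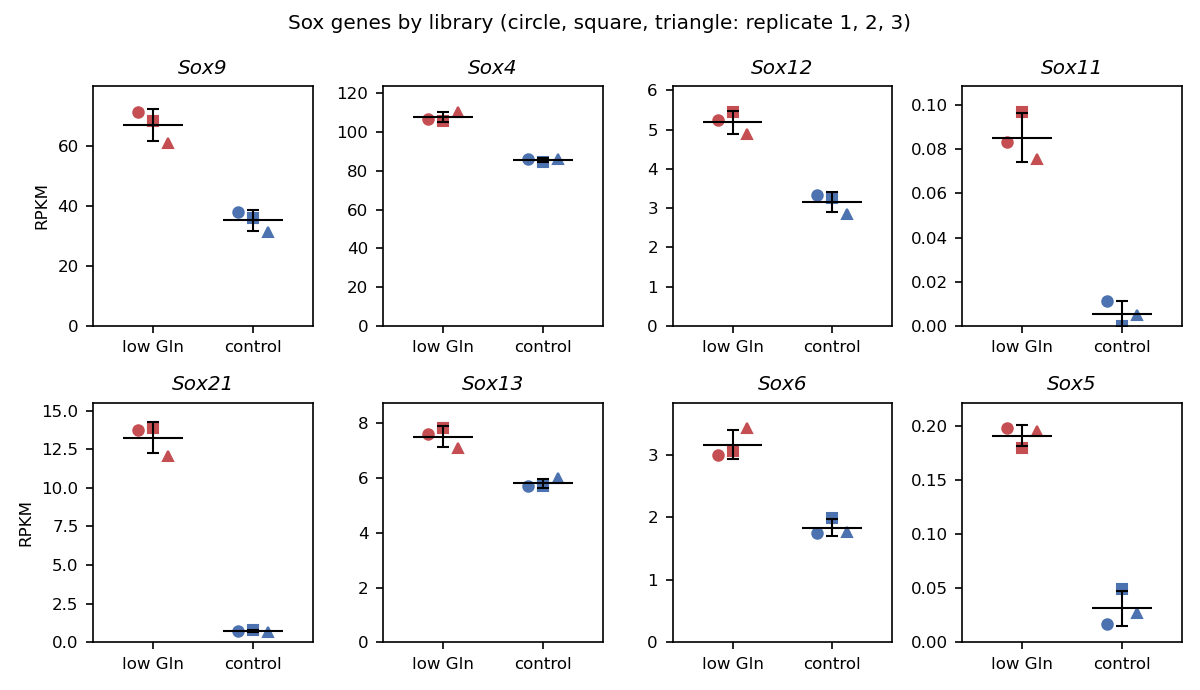
RPKM (y axis, from 0, a scale per gene) of the 8 Sox genes with detectable and non-overlapping values, in low glutamine (red) and control (blue) libraries. Points are libraries and bars the mean and SD of 3. Sox21 sits at 12.1 to 13.9 in low glutamine and 0.668 to 0.804 in control medium, whereas Sox4 differs by a ratio of 1.26.

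Sox5, Sox6 and Sox13 form the SOXD group, which lacks a transactivation domain of its own. In cartilage, Sox5 and Sox6 act together with Sox9. Sox13, on chromosome 1 from 133382300 to 133424459, minus strand, had 7.61, 7.81 and 7.08 RPKM in low glutamine libraries, against 5.71, 5.69 and 5.98 RPKM in control libraries. It averaged 7.50 ± 0.378 RPKM in low glutamine and 5.80 ± 0.164 RPKM in control medium (SD, n = 3 each), a ratio of 1.29. The groups were apart. The log2 fold change of 0.32, with a standard error of 0.05, was about that of Sox4.

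Sox6 had 3.00, 3.07 and 3.43 RPKM in low glutamine libraries, against 1.75, 1.99 and 1.77 RPKM in control libraries. All low glutamine values were above all control values. The means were 3.16 ± 0.231 RPKM in low glutamine and 1.84 ± 0.136 RPKM in control medium (SD, n = 3 each), a ratio of 1.72 and a log2 fold change of 0.55 with a standard error of 0.07. The gene spans 569905 bases of chromosome 7, from 115470872 to 116040776 on the minus strand, with 16 annotated transcripts, and the table gives 1 value for all of them. It overlaps the non-coding gene Sox6os, which had 0.280, 0.217 and 0.253 RPKM in low glutamine libraries, against 0, 0.0673 and 0.0975 RPKM in control libraries. The sources used here do not say whether the counting used strand, so reads of the pair cannot be told apart.

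Sox5 stood far below its relatives. It had 0.198, 0.180 and 0.195 RPKM in low glutamine libraries, against 0.0173, 0.0495 and 0.0276 RPKM in control libraries. The groups did not overlap, and the control values spread widely for their mean of 0.0314 ± 0.0164 RPKM, beside 0.191 ± 0.00973 RPKM in low glutamine (SD, n = 3 each). The ratio of means was 6.08, and the log2(RPKM + 1) difference 0.21. The gene lies on chromosome 6 from 143828425 to 144782287, minus strand.

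Sox18, the SOXF gene of vascular and lymphatic endothelium, was at 0, 0 and 0.0219 RPKM in low glutamine libraries and at 0.0198, 0.0174 and 0 RPKM in control libraries. This is 1 read in low glutamine and 2 reads in control medium, at the limit of detection, with overlapping groups. Sox7 and Sox17, the other SOXF genes, were at 0 in all 6 libraries, as were Sox10, Sox30 and Sry. Of the 8 endothelial markers, 3 (Cldn5, Emcn and Tie1) were at 0 in every library, and the endothelial cadherin Cdh5 did not exceed 0.00762 RPKM. The summed endothelial level was 6.15 to 7.05 RPKM in low glutamine and 2.66 to 2.85 RPKM in control libraries, most of it from Esam at 6.12 ± 0.401 RPKM and 2.54 ± 0.120 RPKM.

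By mean RPKM the order in low glutamine was Sox4, Sox9, Sox21, Sox13, Sox12, Sox6, Sox5, Sox11, Sox18 and Sox2. In control medium it was Sox4, Sox9, Sox13, Sox12, Sox6, Sox21, Sox5, Sox18, Sox11 and Sox2. Sox21 thus stood between Sox9 and Sox13 in low glutamine, and between Sox6 and Sox5 in control medium. Neighbours from Sox4 down to Sox18 in low glutamine, and from Sox4 down to Sox5 in control medium, had ranges that did not overlap. The ranges of Sox18 and Sox2 overlapped in low glutamine, and in control medium those of Sox5 and Sox18, of Sox18 and Sox11 and of Sox11 and Sox2 did.

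**Figure D2:**
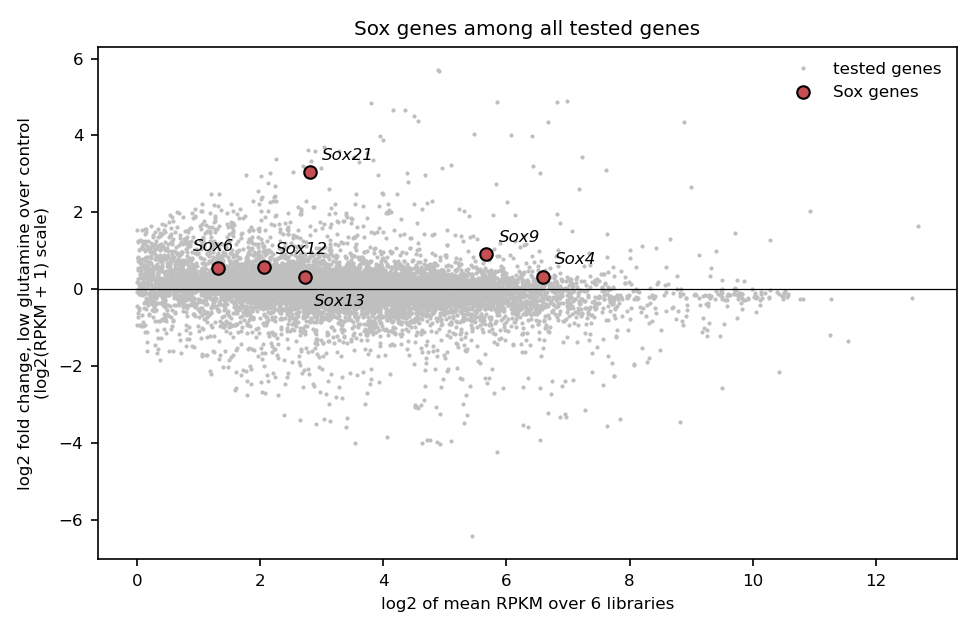
Log2(RPKM + 1) fold change, low glutamine over control (y axis), against the log2 of mean RPKM over 6 libraries (x axis) for 11082 tested genes (grey) and the 6 tested Sox genes (red). Sox21 at 3.04 and Sox9 at 0.91 lie highest, and Sox4 combines the highest level with a change of 0.33.

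Ratios within a library do not depend on scaling each library by a factor of its own, though quantile normalization can change them. The ratio of Sox9 to Sox4 was 0.623 ± 0.0616 in low glutamine, with values of 0.553 to 0.670, and 0.411 ± 0.0405 in control medium, with values of 0.365 to 0.440 (SD, n = 3 each). Sox9 was thus higher relative to Sox4 in every low glutamine library than in any control library. The ratio of Sox21 to Sox9 was 0.198 ± 0.00519 in low glutamine and 0.0208 ± 0.00182 in control medium, and that of Sox6 to Sox13 was 0.424 ± 0.0526 and 0.317 ± 0.0293. Summed over the 10 genes, the level was 204 ± 4.26 RPKM in low glutamine and 132 ± 3.61 RPKM in control medium. Of that sum, Sox4 and Sox9 together made up 85.6 ± 0.497% in low glutamine and 91.2 ± 0.209% in control medium. Sox4 alone held 52.8 ± 2.28% in low glutamine and 64.7 ± 1.84% in control medium, Sox9 32.8 ± 1.91% and 26.5 ± 1.91%, and Sox21 6.49 ± 0.380% and 0.551 ± 0.0499%. These differences follow from the same values that chose the genes and are given with no test.

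**Figure D3:**
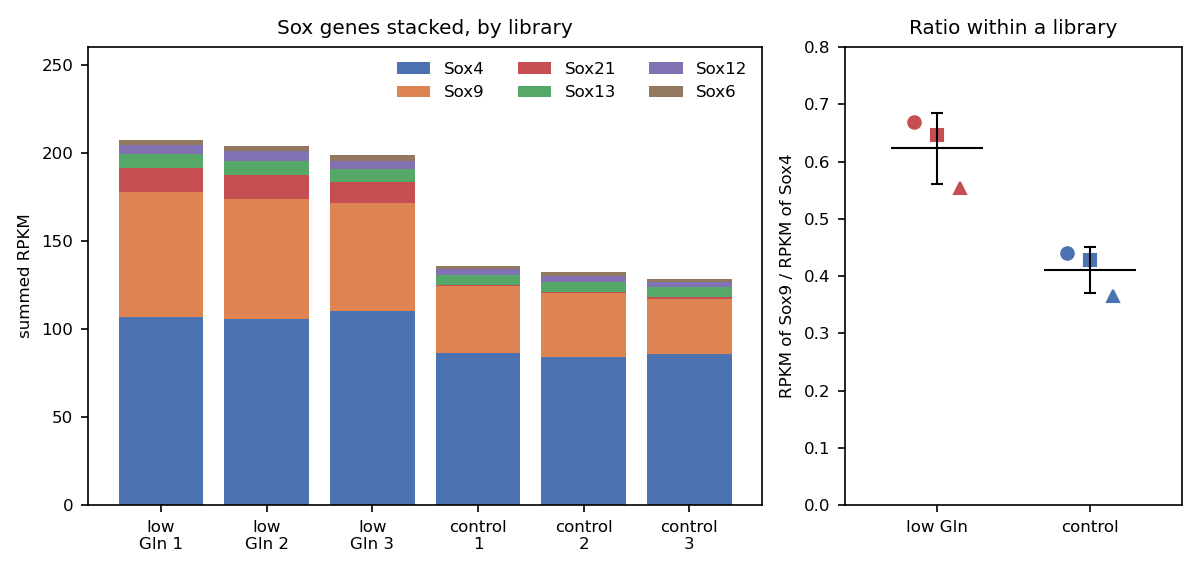
Left, RPKM of the 6 Sox genes above 1 RPKM stacked by library (y axis from 0); right, RPKM of Sox9 divided by RPKM of Sox4 in each library, with mean and SD of 3. Stacks reach 199 to 207 RPKM in low glutamine and 128 to 136 RPKM in control libraries, and the ratio is 0.553 to 0.670 in low glutamine and 0.365 to 0.440 in control libraries.

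Among 7826 genes that averaged 5 RPKM or more, those with the profile over the 6 libraries nearest to that of Sox9 were Pcyox1l, Ptprs and Adgrg1. Their distances on the centred log2 scale were 0.104, 0.132 and 0.143, and their log2 fold changes 0.85, 0.86 and 0.91. Adgrg1, which encodes an adhesion receptor, averaged 30.6 RPKM in low glutamine and 15.8 RPKM in control medium. The profiles nearest to that of Sox4 were those of Zfp148, Gnl3l and Trmt6, at distances of 0.0323, 0.0357 and 0.0370 and with log2 fold changes of 0.32, 0.33 and 0.31. These genes are named by nearness alone.

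The genes next to each member on its chromosome were examined after the Sox values were seen. Of the 20 flanking protein-coding genes 11 were tested, of which 3 rose, 4 fell and 4 did not pass by limma, with a median log2 fold change of 0.09 beside 0.03 over all tested genes. The shares that rose and fell are near those over all tested genes, 36.1% higher and 30.3% lower, and nothing particular to the neighbours is read from them. Sox9 lies 457094 bases from Slc39a11, a zinc transporter gene, which fell to 20.9 RPKM in low glutamine, against 27.3 RPKM in control medium (log2 fold change -0.37 ± 0.05 SE, limma adjusted p = 2.8e-05). On the other side, 1705385 bases away, the potassium channel gene Kcnj2 had 1.93 RPKM in low glutamine and 1.68 RPKM in control medium and did not pass (limma adjusted p = 0.12). Gpr180, 69001 bases from Sox21, rose to 5.87 RPKM in low glutamine, against 4.77 RPKM in control medium (log2 fold change 0.25 ± 0.05 SE, limma adjusted p = 0.0013). Cdkal1, 238047 bases from Sox4, had 2.44 RPKM in low glutamine and 2.24 RPKM in control medium and did not pass (limma adjusted p = 0.3).

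The other HMG-box genes share the DNA-binding fold but are no SOX genes. Values of list genes are means ± SD of 3 libraries a group. This list and those below were chosen with earlier results of these data known, so their counts are a description. Of all tested genes, 36.1% were called higher and 30.3% lower, with a median log2 fold change of 0.03. Of 24 other HMG-box genes 21 were tested, of which 14 rose, 3 fell and 4 did not pass. Their median log2 fold change was 0.29. Lef1, a partner of beta-catenin in Wnt signalling, had 2.07 ± 0.171 RPKM in low glutamine and 0.125 ± 0.0201 RPKM in control medium. It reached the filter of 1 RPKM only through the low glutamine group, so its place among the 14 was fixed by the filter, and it was not tested when any 1 low glutamine library was left out. Tcf7, a relative of Lef1, rose to 12.3 ± 0.153 RPKM in low glutamine, against 7.19 ± 0.192 RPKM in control medium (limma adjusted p = 8.6e-08). Tcf7l2, the main TCF of the intestinal epithelium, fell to 8.11 ± 0.263 RPKM in low glutamine, against 11.3 ± 0.481 RPKM in control medium (limma adjusted p = 1.4e-05), as did Hmg20b and Hmgxb3. These genes that fell were picked out after their values were seen. Tox and Bbx also rose, with log2 fold changes of 0.64 and 0.61. Hbp1, a repressor of Wnt target genes, had 12.3 ± 0.223 RPKM in low glutamine and 11.3 ± 0.353 RPKM in control medium (limma adjusted p = 0.055) and Tfam, the mitochondrial HMG protein, 15.6 ± 0.945 and 15.04 ± 0.633 RPKM (limma adjusted p = 0.44). Both passed after scaling the libraries to equal sums, which gave 17 that rose and 3 that fell. With that scaling 5689 of all 11093 tested genes were called higher and 2543 lower. Nothing particular to this list is read from the added calls.

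Of 18 factors known to act with SOX proteins in various tissues, 5 were tested. Beside 36.1% of all tested genes, all 5 were called higher, with a median log2 fold change of 0.71. They are Runx1, Pou6f1, Pou2f1, Ctnnb1 and Sp1, of which Pou6f1 reached the filter only through the low glutamine group. Without the filter 7 of 15 were called higher and 0 lower, and the median was 0.009. Over all 18846 genes in that fit, 5697 were called higher and 3499 lower, with a median of 0.02. Runx1 had 6.08 ± 0.292 RPKM in low glutamine and 2.05 ± 0.0552 RPKM in control medium (log2 fold change 1.21, limma adjusted p = 1.7e-09). Ctnnb1, which encodes beta-catenin, had 241 ± 3.36 RPKM in low glutamine and 188 ± 10.1 RPKM in control medium (log2 fold change 0.35, limma adjusted p = 2.6e-04). Of the 5 calls, 4 were made with median-of-ratios scaling, without low glutamine replicate 1 and without control replicate 2.

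Paneth cells need Sox9 in the mouse. Of 11 Paneth cell genes, 10 rose and 1, Nupr1, fell, with a median log2 fold change of 0.86, and 1 of the 10, Mptx2, reached the filter only through the low glutamine group. Mmp7, the protease that activates defensins, rose to 108 ± 5.46 RPKM in low glutamine, against 21.4 ± 0.662 RPKM in control medium (log2 fold change 2.28, limma adjusted p = 5.2e-12), and Clps, Habp2 and Reg3g rose by 3.02, 2.48 and 3.03 on the log2 scale. Nupr1 fell to 67.8 ± 1.03 RPKM in low glutamine, against 82.2 ± 0.200 RPKM in control medium (limma adjusted p = 4.2e-04), and with quantile normalization no Paneth cell gene was called lower. All 16 crypt stem cell genes tested rose, with a median log2 fold change of 0.95. Both lists were chosen with earlier results of these data known, so these counts are a description. Of all tested genes, 36.1% were called higher and 30.3% lower. The receptor gene Lgr5 had 113 ± 3.87 RPKM in low glutamine and 42.5 ± 1.14 RPKM in control medium (log2 fold change 1.39, limma adjusted p = 3.2e-10), and Tnfrsf19 had 45.9 ± 1.93 and 1.24 ± 0.0128 RPKM (log2 fold change 4.39). Cd44 and Ephb3, targets of Wnt signalling, rose to 27.7 ± 1.20 and 21.04 ± 0.465 RPKM in low glutamine, against 4.202 ± 0.285 and 6.83 ± 0.689 RPKM in control medium.

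Sox4 is linked in the intestine to enteroendocrine and tuft cells. Of 19 secretory and endocrine lineage factors 15 were tested, of which 12 rose, 2 fell and 1 did not pass. Their median log2 fold change was 1.05, and 36.1% of all tested genes were called higher and 30.3% lower. Among the 12, Lmx1a, Myt1, Pax4 and St18 reached the filter only through the low glutamine group. Without the filter 14 of 19 were called higher and 2 lower, with a median of 0.87. In that fit 5697 of all 18846 genes were called higher and 3499 lower. Neurog3, the factor that starts the enteroendocrine lineage, rose to 46.7 ± 0.546 RPKM in low glutamine, against 8.72 ± 0.299 RPKM in control medium (limma adjusted p = 1.9e-12). The endocrine factors Nkx2-2 and Neurod1 rose by 1.95 and 1.70 on the log2 scale, and Pax4 had 3.13 ± 0.0808 RPKM in low glutamine and 0.410 ± 0.0947 RPKM in control medium. Atoh1, which commits cells to the secretory lineage, fell to 2.98 ± 0.171 RPKM in low glutamine, against 5.37 ± 0.836 RPKM in control medium (limma adjusted p = 2.3e-05), as did the goblet cell factor Spdef, at 2.72 ± 0.0201 and 4.12 ± 0.609 RPKM (limma adjusted p = 2.9e-04). Mnx1 had 3.08 ± 0.596 RPKM in low glutamine and 3.51 ± 0.296 RPKM in control medium and did not pass (limma adjusted p = 0.16). It passed without low glutamine replicate 1 (limma adjusted p = 0.0075) and with the replicate number as a block (limma adjusted p = 0.034). The block fit gave extreme values, such as a limma adjusted p of 6.9e-286 for Neurog3, so its calls carry little weight.

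Tuft cell genes were few above the filter. Of 17 listed genes, 16 had a row and 4 were tested. Called higher were 3 of the 4 (the tuft cell regulator Pou2f3, Avil and the taste channel gene Trpm5), beside 36.1% of all tested genes. The other, the interleukin receptor gene Il17rb, fell. The median log2 fold change was 0.68, but Avil and Trpm5 reached the filter only through the low glutamine group. Pou2f3 had 2.88 ± 0.0607 RPKM in low glutamine and 1.05 ± 0.103 RPKM in control medium (log2 fold change 0.92, limma adjusted p = 7.1e-08). Without the filter on low values, 7 of 16 were called higher and 1 lower, and the median was 0.11. All genes in that fit numbered 18846, of which 5697 were called higher and 3499 lower.

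Sox2 is known from foregut epithelium. Of 17 stomach and foregut genes with a row, 4 reached the filter, each only through the low glutamine group, so that they were higher there was fixed by the filter. Without the filter 8 of 14 were called higher and 0 lower, with a median log2 fold change of 0.44. In that fit 5697 of all 18846 genes were called higher and 3499 lower. The pepsinogen gene Pgc had 59.9 ± 3.57 RPKM in low glutamine and 0.197 ± 0.122 RPKM in control medium. Gif, Gkn3 and Anxa10 had 3.13 ± 0.374, 3.599 ± 0.638 and 1.85 ± 0.0592 RPKM in low glutamine, against 0.0220 ± 0.00426, 0.232 ± 0.0842 and 0.733 ± 0.193 RPKM in control medium. Of 10 intestinal identity genes 9 were tested, of which 0 rose, 7 fell and 2 did not pass. Their median log2 fold change was -0.56, and 36.1% of all tested genes were called higher and 30.3% lower. Cdx2, the homeobox factor of intestinal identity, fell to 65.6 ± 0.986 RPKM in low glutamine, against 97.1 ± 4.67 RPKM in control medium (limma adjusted p = 2.4e-06), and Hnf4g fell to 10.95 ± 0.277 RPKM, against 40.6 ± 2.17 RPKM. The cadherin gene Cdh17 fell by 0.81 on the log2 scale. Gata4 had 41.2 ± 0.335 RPKM in low glutamine and 42.0 ± 3.62 RPKM in control medium and did not pass (limma adjusted p = 0.76).

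**Figure D4:**
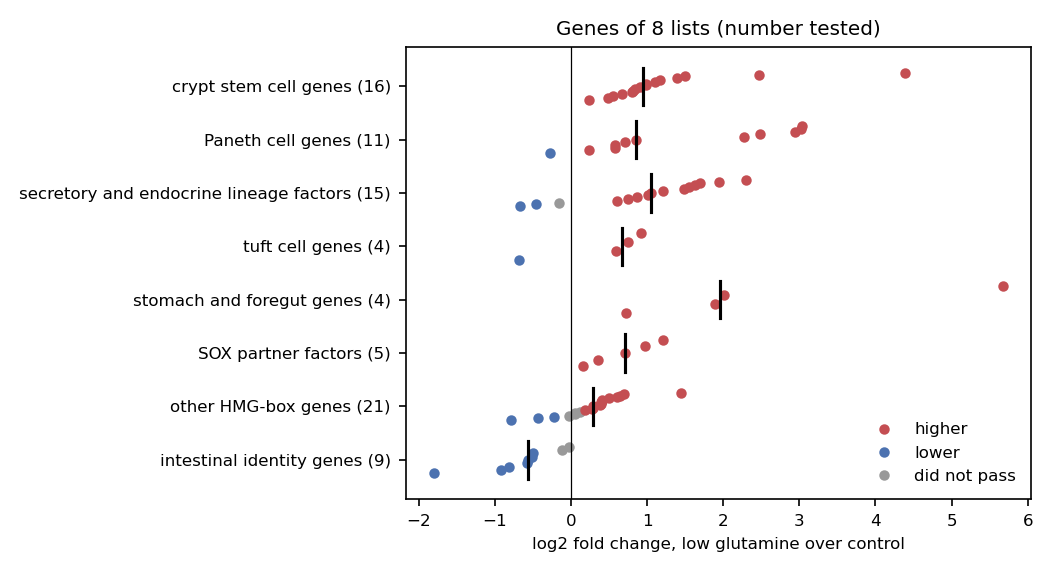
Log2(RPKM + 1) fold change, low glutamine over control (x axis), of each tested gene of the 8 lists, with the number tested in brackets. Points are genes, coloured by limma call, and vertical bars the list median. All 16 crypt stem cell genes lie to the right of 0, the 4 stomach and foregut genes reached the filter only through low glutamine, and 7 of 9 intestinal identity genes were called lower.

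Genes known as Sox9 targets in cartilage were measured at low levels. The 11 genes summed to 3.06 to 3.39 RPKM in low glutamine and 0.426 to 0.444 RPKM in control libraries, and none reached the filter. Col9a3, the highest of them, had 1.43 ± 0.0858 RPKM in low glutamine and 0.0573 ± 0.0122 RPKM in control medium (SD, n = 3 each). Col2a1, the main cartilage collagen gene and a defining one, averaged 0.0298 RPKM in low glutamine and was at 0 in control libraries, Acan did not exceed 0.00393 RPKM, and 2 of the 11, Matn1 and Matn3, were at 0 in every library.

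Markers of other cell types in which Sox genes are active were mostly below the filter. Of the neural and glial, mesenchymal and immune markers only Tubb3 reached it, and only through the low glutamine group. The 10 neural and glial markers summed to 6.59 to 7.33 RPKM in low glutamine and 0.889 to 1.33 RPKM in control libraries. They were led by Tubb3 at 4.77 ± 0.222 RPKM and 0.381 ± 0.0674 RPKM, and 0 of the 10 were at 0 in every library. The 7 mesenchymal markers summed to 0.104 to 0.111 RPKM in low glutamine and 0.284 to 0.316 RPKM in control libraries, led by Pdgfrb at 0.0739 ± 0.00586 and 0.271 ± 0.0274 RPKM, with 2 of the 7 at 0 in every library. The 6 immune markers summed to 0.230 to 0.411 RPKM in low glutamine and 0.726 to 0.970 RPKM in control libraries, led by Itgam at 0.230 ± 0.0175 and 0.783 ± 0.119 RPKM, with 1 of the 6 at 0 in every library. The part of these cell types in the Sox values was not tested.

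**Figure D5:**
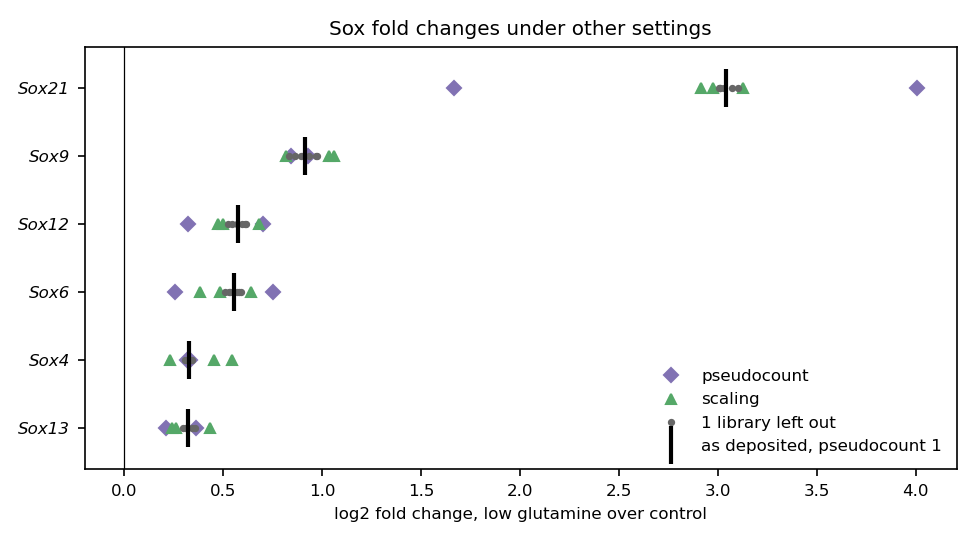
Log2 fold change, low glutamine over control (x axis), of the 6 tested Sox genes under other pseudocounts (diamonds), other scalings (triangles) and with 1 library left out (dots), beside the value as deposited with a pseudocount of 1 (bars). All values lie above 0, from 0.21 for Sox13 to 4.01 for Sox21.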

How the data were processed

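RNA-seq of 6 libraries, 3 from low glutamine medium and 3 from control medium, was used. The deposited values are RPKM per gene symbol, made by the authors. Partek, HISAT2 2.0.4, CASAVA 1.8 and the mm10 build are listed in the submitters' processing notes, and the sources used here give no annotation, counting rule or strand setting. RPKM values are not counts, so no count test was run. Depth was estimated from the lowest values of 2442 single-exon genes, whose length gives the value of 1 read, and 79.5% to 86.1% of the low values checked were then whole within 0.02 of a read. The totals of 24.4 to 35.3 M reads set the precision of low genes, and intervals and floors (3 reads) cover counting error only.

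The fit took 11082 of 24956 rows, those averaging 1 RPKM or more, as log2(RPKM + 1) into limma 3.58.1 (R 4.3.3), with a variance trend, two-sided tests and Benjamini-Hochberg adjustment over all of them, at a threshold of 0.05. The script was tested on simulated data. The libraries are described as biological replicates, but the sources used here do not say whether those within a group came from separate animals or cultures. The spread behind the p-values may therefore be technical. Tables and plots were made with Python 3.11.15, pandas 2.3.3, numpy 2.4.6, scipy 1.17.1 and matplotlib 3.10.9. Coordinates and promoter windows are RefSeq's on GRCm38.p6.

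The Sox genes and the gene lists were chosen with earlier results of these data known. Named were all Sox genes, from each tested list up to 4 called genes with the smallest p and up to 2 not called, from each list of other cell types the most abundant gene, and the 3 genes nearest in profile to Sox9 and to Sox4. Some genes that the rule gave are not reported here. Genes outside this rule are named where they complete a small count. Groups share replicate numbers in the labels, and same-numbered libraries correlated in their deviations from the group means, at 0.15, 0.25 and 0.57, all over 0.1, so a fit with the number as a block was added. Low glutamine replicate 1 correlated more with control replicate 2, at 0.36. In all, 13 alternatives were tried.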

Additional observations from a re-analysis of the deposited data

How the results depend on the processing

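The median log2 fold change of the 10 Sox genes, 0.32 as reported, was 0.73 with a pseudocount of 0.1 and 0.23 with a pseudocount of 5. Scaling the libraries to equal sums gave 0.44 and median-of-ratios scaling 0.24. The number of Sox genes whose groups did not overlap stayed at 8 under every scaling and with any 1 library left out. Without the filter on low values, 9196 of 18846 genes were called over all tested genes. The calls were then 8 of the tuft cell genes and 8 of the stomach and foregut genes, against 4 and 4 with the filter, since more genes were tested. The other 102 of 104 counts of list calls under the alternatives stayed within 1.5 times. Of the 40 tested genes that the naming rule gave, 4, among them Hbp1, Tfam and Mnx1, gained a call under an alternative. The rest kept their calls wherever they were tested, but Lef1 fell below the filter, and was not tested, when any 1 low glutamine library was left out. List medians moved with the pseudocount: that of the stomach and foregut genes was 4.11 with 0.1 and 0.70 with 5, that of the tuft cell genes 1.17 and 0.24, that of the secretory and endocrine factors 1.78 and 0.57, and that of the SOX partner factors 0.87 and 0.37. With the replicate number as a block, 7736 genes were called over all tested genes, against 7361 without it, and among the named genes only the call of Mnx1 changed. The limma adjusted p of Neurog3 was 6.9e-286 in the block fit and 1.9e-12 without the block, so the calls of the block fit carry little weight. Leaving out 1 library in turn gave 6651 to 7298 calls. Depth limits Sox2, Sox18, Sox11 and the genes of the family outside the 10, which rest on few reads or none.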
